A study of Mus musculus with 12 samples.

Results

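The E proteins and their Id inhibitors were examined in pre-selection thymocytes with changed Bcl11b. The E protein genes were Tcf3, Tcf4 and Tcf12, and the Id genes were Id1, Id2 and Id3. These 6 genes were chosen by name and make up 6 of the 23234 genes and short RNAs of the expression table. Their transcripts were measured by RNA-seq in 12 libraries from C57BL/6 mice, each labelled as thymocytes sorted as CD24hiTCRβlo CD4+CD8+, a population that has not yet been selected on its T cell receptor. The extract protocol in the labels instead describes a sort of CD4-CD8- NKT cells, so the sort is given here as the sample labels and the study have it, and its markers are given with the results. The 5 wild-type libraries came from newborn mice. The 3 Bcl11bm/m libraries came from newborn mice homozygous for a frameshift allele of Bcl11b, from which a protein without its last zinc finger is made, and such mice die as neonates. The 4 Bcl11bfl/fl:Cd4-Cre libraries came from mice that delete a floxed Bcl11b with a Cre under Cd4 control, so that the gene is still intact until about the CD4+CD8+ stage, and the labels give no age for them. The study's methods state an age of some weeks for sorted organs in general, without naming these libraries, so genotype and age may be confounded against the newborn groups. Genotype was taken from the sample titles and the overall design, because the separate sample descriptions give Bcl11bm/m where the title says wild-type and Bcl11b+/+ where it says Bcl11bfl/fl:Cd4-Cre. No label says whether the libraries of a group came from separate animals, so p-values measure only the spread between these libraries.

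E proteins are basic helix-loop-helix transcription factors that bind the E-box, CANNTG, as homodimers or heterodimers. Id proteins carry the helix-loop-helix but no DNA-binding region, and they hold E proteins in dimers that cannot bind DNA. In the thymus, E2A (the product of Tcf3) and HEB (the product of Tcf12) are known to drive the genes of the CD4+CD8+ stage, Id3 is induced by T cell receptor signals, and Id2 is a marker of innate lymphoid, NK and effector T cells. Tcf4 encodes E2-2, known for plasmacytoid dendritic cells, and Id1 is a known target of BMP signals.

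The deposited values are FPKM, fragments scaled to the length of the transcript and to the mapped fragments of the library, so levels can be set beside each other per length. Positions follow GENCODE vM1 on NCBIM37 (mm9). Tcf3 (ENSMUSG00000020167.8) lies on the minus strand at chr10:79872259-79896392 and Tcf12 (ENSMUSG00000032228.8) on the minus strand at chr9:71692059-71959626. Id1 (ENSMUSG00000042745.9) lies on the plus strand at chr2:152561987-152563146, Id2 (ENSMUSG00000020644.8) on the minus strand at chr12:25778666-25780957 and Id3 (ENSMUSG00000007872.3) on the plus strand at chr4:135699412-135701670. All 6 are protein-coding. The longest spliced transcripts of the Id genes are 1160, 1270 and 1278 bases, in the order Id1, Id2 and Id3. Those of Tcf3, Tcf12 and Tcf4 are 2950, 4707 and 7402 bases, and Tcf3 is annotated with 14 transcripts and Tcf4 with 15, which a single FPKM per gene does not separate. The symbol of Tcf4 is also used for Tcf7l2 and that of Tcf3 for Tcf7l1 in older literature. The table was read by its own symbols.

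Because E proteins are known to act on their own partners and on Id genes, the promoters are shown for Id2, which was higher in both mutants, for Id3, the most abundant Id gene, and for Tcf12 and Tcf3, the abundant E protein genes. Each run holds 250 bases before and 50 bases after a RefSeq transcript start on GRCm38.p6, reads 5′ to 3′ on the strand of the gene and has every E-box (CANNTG) in capitals. They were matched by symbol. Tcf12 has 3 starts in the table, of which the first listed is shown.
Id2, chr12:25096043-25096342, minus strand: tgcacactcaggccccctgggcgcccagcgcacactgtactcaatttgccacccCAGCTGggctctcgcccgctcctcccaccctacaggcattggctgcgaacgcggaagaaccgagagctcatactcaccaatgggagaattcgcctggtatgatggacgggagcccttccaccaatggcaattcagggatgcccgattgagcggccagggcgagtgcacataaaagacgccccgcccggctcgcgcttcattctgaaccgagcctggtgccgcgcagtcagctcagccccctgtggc
Id3, chr4:136143572-136143871, plus strand: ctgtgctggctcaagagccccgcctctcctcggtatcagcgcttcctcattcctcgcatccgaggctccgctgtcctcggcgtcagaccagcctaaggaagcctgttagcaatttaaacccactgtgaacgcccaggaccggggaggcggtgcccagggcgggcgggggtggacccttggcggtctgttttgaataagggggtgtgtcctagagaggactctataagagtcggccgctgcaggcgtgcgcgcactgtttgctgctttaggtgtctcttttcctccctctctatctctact
Tcf12, chr9:72111770-72112069, minus strand: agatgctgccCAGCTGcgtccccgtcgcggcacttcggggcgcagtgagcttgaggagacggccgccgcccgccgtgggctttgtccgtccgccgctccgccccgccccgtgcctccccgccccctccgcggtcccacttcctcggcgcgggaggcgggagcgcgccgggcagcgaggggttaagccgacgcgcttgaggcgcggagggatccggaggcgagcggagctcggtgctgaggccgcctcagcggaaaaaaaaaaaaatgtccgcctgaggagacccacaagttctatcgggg
Tcf3, chr10:80433586-80433885, minus strand: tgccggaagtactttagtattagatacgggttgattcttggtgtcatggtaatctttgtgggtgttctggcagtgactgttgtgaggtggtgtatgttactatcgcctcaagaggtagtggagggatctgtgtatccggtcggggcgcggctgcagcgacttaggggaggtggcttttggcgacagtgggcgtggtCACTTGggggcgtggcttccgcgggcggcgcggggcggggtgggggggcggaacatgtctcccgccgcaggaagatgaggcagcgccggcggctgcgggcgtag

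The Id2 promoter holds 1 E-box, with the letters CAGCTG, and its first base lies at position -196 from the start. The Tcf12 promoter shown also holds 1, with the same letters, at position -240, while the windows of its other 2 starts hold CAAGTG and CACTTG, and CATGTG, and no CAGCTG. The Tcf3 promoter holds 1 E-box of the letters CACTTG at position -54. No CANNTG is found in the window of Id3, whereas 72.3% of 32851 RefSeq promoters of the same length hold at least 1 CANNTG on either strand and 16.3% hold a CAGCTG, which is one of the forms of CANNTG. A match to these letters does not show binding.

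Libraries of a group resembled each other, with a median correlation of each library with its own group of 0.912 to 0.934 on the log2(FPKM + 1) scale. Wild-type replicate 1 had the lowest of these values and the largest share of FPKM in short RNAs, 17.1% against 7.02 to 14.9% in the others. Low values fell near whole multiples of a step (within 0.1) in 59.7 to 65.8% of cases, against 20% if spread evenly, from which 3990000 to 6920000 fragments were estimated per wild-type library, 2730000 to 4230000 per Bcl11bm/m library and 10940000 to 45860000 per Bcl11bfl/fl:Cd4-Cre library. The depth of Bcl11bfl/fl:Cd4-Cre did not overlap with that of the other groups, so depth is confounded with that genotype. At the estimated depth, an Id2 value of a wild-type library rests on about 13 to 27 fragments and an Id1 value on about 1 to 16. The Id1 values of Bcl11bm/m rest on about 20 to 28 fragments, which is few as well, and other genes given below at under 1 FPKM in wild-type also rest on few.

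The targeted gene was read in every library. Here and below, the values of a group are listed in replicate order. The wild-type libraries had 132, 286, 292, 158 and 223 FPKM of Bcl11b. Its Bcl11bm/m values were 430, 434 and 482 FPKM. The Bcl11bfl/fl:Cd4-Cre values were 127, 140, 136 and 115 FPKM. The Bcl11b RNA level was higher in Bcl11bm/m than in wild-type, at 2.05 times the wild-type mean (adjusted p = 0.0279). In Bcl11bfl/fl:Cd4-Cre cells transcript was still counted, at 0.594 times the wild-type mean (log2 difference -0.68, adjusted p = 0.0828), a difference that was not called, with overlapping ranges. Values per gene do not tell deleted from remaining exons, so Bcl11b does not settle the genotype of the libraries whose title and description disagree. The study reports a Thpok reporter as absent in control pre-selection thymocytes, on in nearly all Bcl11bm/m ones and variegated in Bcl11bfl/fl:Cd4-Cre ones. By title, the Thpok gene Zbtb7b averaged 0.0618 FPKM in wild-type, 46.0 in Bcl11bm/m and 30.7 in Bcl11bfl/fl:Cd4-Cre. Both mutants lay above wild-type. They overlapped with each other and did not differ detectably (log2 difference 0.81, adjusted p = 0.335 by limma). Mean RNA of bulk cells is also not the share of cells in which a reporter is on.

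Wild-type pre-selection thymocytes were rich in Tcf12, Id3 and Tcf3 transcripts and poor in those of Tcf4, Id2 and Id1. Tcf12 averaged 131 ± 28.7 FPKM (SD, n = 5), Id3 80.8 ± 33.7 and Tcf3 76.1 ± 9.91. Tcf4 averaged 5.92 ± 0.858 FPKM, Id2 3.77 ± 0.938 and Id1 1.89 ± 1.21. In this order the ranges of neighbours overlapped for Tcf12 and Id3, for Id3 and Tcf3, for Tcf4 and Id2, and for Id2 and Id1, while every wild-type library had more Tcf3 than Tcf4. Among the 10780 features that reached a mean of 1 FPKM over all libraries, the wild-type mean of Tcf12 stood at percentile 95.5 and that of Id2 at percentile 20.1. All 6 genes passed this filter.

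**Figure D1:**
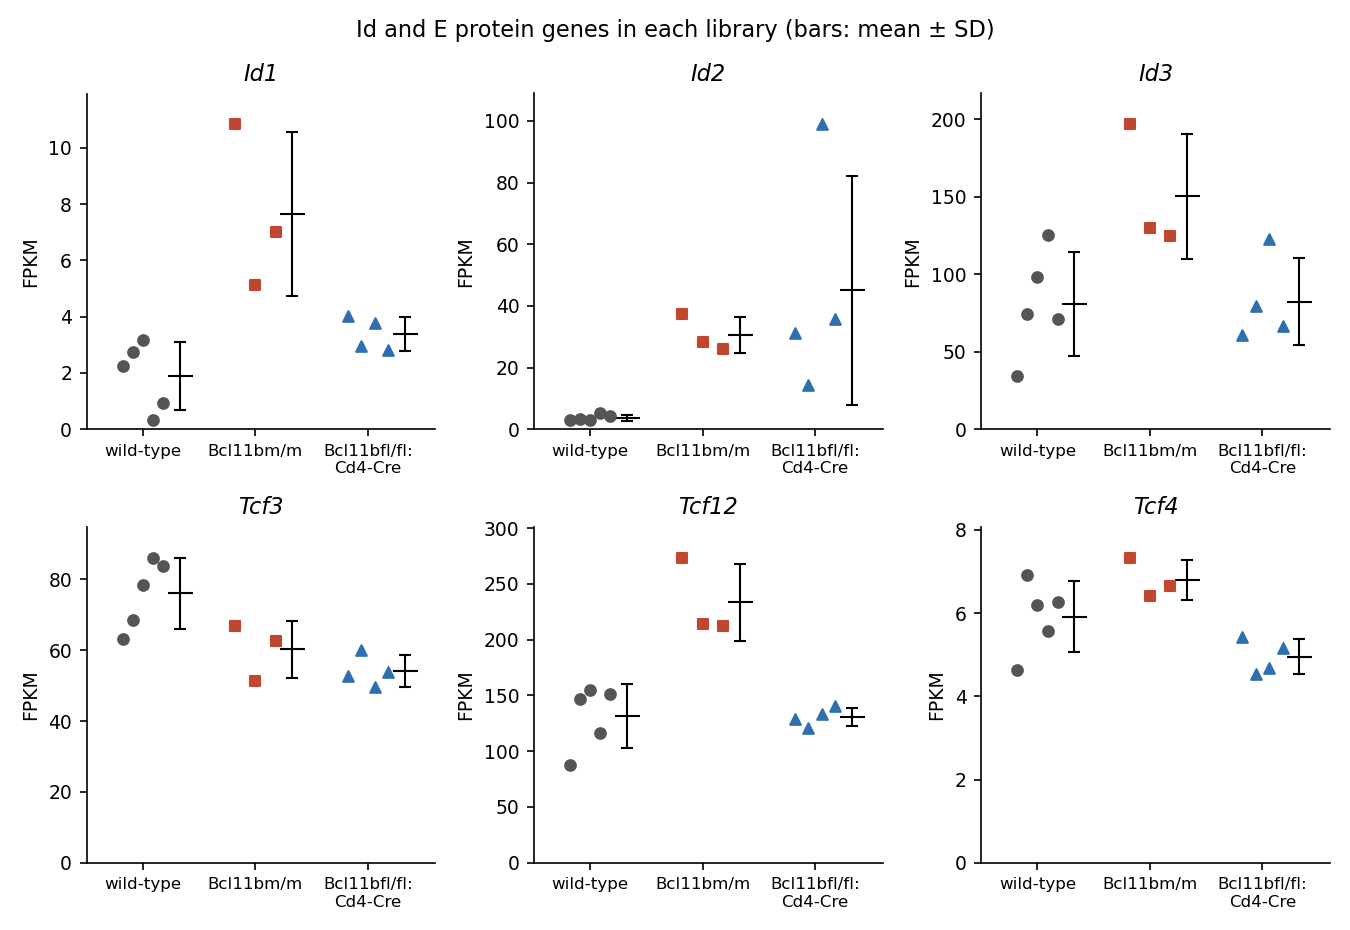
Level of each Id and E protein gene in FPKM (linear axes from 0), with 1 point per library and the group mean ± SD beside the points, for wild-type (circles), Bcl11bm/m (squares) and Bcl11bfl/fl:Cd4-Cre (triangles). The wild-type Id2 values lie between 3.05 and 5.25 FPKM and all mutant values between 14.3 and 99.0, whereas Tcf12 is set apart in Bcl11bm/m alone.

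Id2 was the member that differed most from wild-type, and it was higher in both mutants. Wild-type cells had 3.09, 3.33, 3.05, 5.25 and 4.15 FPKM of Id2. Its levels were 37.3, 28.3 and 26.1 FPKM with Bcl11bm/m. They were 31.1, 14.3, 99.0 and 35.7 FPKM with Bcl11bfl/fl:Cd4-Cre. No mutant library reached down to the wild-type range, and the Bcl11bfl/fl:Cd4-Cre libraries were spread widely, with the highest 6.92 times the lowest, against 1.43 times in Bcl11bm/m.

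The mean of Id2 in Bcl11bm/m cells was 8.10 times that of wild-type. The difference was 2.73 on the log2(FPKM + 1) scale (SE 0.19, 95% interval 2.29 to 3.17, adjusted p = 6.61e-05 by limma over all 10780 features). For Bcl11bfl/fl:Cd4-Cre the mean was 11.9 times the wild-type mean, with a log2 difference of 2.96 (SE 0.43, 95% interval 2.0 to 3.92, adjusted p = 0.00442). Exact two-sided permutation gave p = 0.0357 and p = 0.0159, the smallest that 3 and 4 libraries against 5 allow. In sorted but bulk RNA, more cells with Id2 and more Id2 RNA per cell cannot be told apart. Both calls held in all 9 other settings of the analysis and without any single library. Without Bcl11bfl/fl:Cd4-Cre replicate 3, the highest, the log2 difference from wild-type was 2.48 (adjusted p = 0.00483).

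Compared directly, the mutants did not differ detectably in Id2. The difference of Bcl11bm/m from Bcl11bfl/fl:Cd4-Cre was -0.23 on the log2 scale, with a 95% interval from -1.53 to 1.07 and an adjusted p of 0.815. Without Bcl11bfl/fl:Cd4-Cre replicate 3 it was 0.25, so neither direction is given. The interval leaves room for a difference of more than 1 on the log2 scale.

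Id3 remained the main Id transcript by FPKM in all 12 libraries, and its levels spread widely within groups. Wild-type cells had 34.7, 74.6, 98.0, 125 and 71.3 FPKM. The Id3 level was 197, 130 and 124 FPKM with Bcl11bm/m. It was 61.0, 79.2, 123 and 66.4 FPKM with Bcl11bfl/fl:Cd4-Cre. The lowest Bcl11bm/m value lay just under the highest wild-type value, and the Bcl11bfl/fl:Cd4-Cre values lay inside the wild-type range.

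The Id3 difference of Bcl11bm/m from wild-type was 0.97 (SE 0.38, adjusted p = 0.123) and did not pass the threshold of 0.05. It passed with quantile normalization (adjusted p = 0.0172), with short RNAs left out (0.00794) and with library quality weights (0.0304), and in the other 6 settings it did not. The difference of Bcl11bfl/fl:Cd4-Cre from wild-type was 0.09 (95% interval -0.67 to 0.85, adjusted p = 0.889). Between the mutants, Id3 was higher in every Bcl11bm/m library, by 0.88 on the log2 scale (SE 0.27), with an adjusted p of 0.0820. This difference passed with quantile normalization (0.0461), with short RNAs left out (0.0360), with library quality weights (0.0351) and without Bcl11bfl/fl:Cd4-Cre replicate 3 (0.0258).

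Id1 was the least abundant Id gene. Its wild-type values were 2.23, 2.74, 3.19, 0.345 and 0.930 FPKM. With Bcl11bm/m they were 10.8, 5.14 and 7.01 FPKM. With Bcl11bfl/fl:Cd4-Cre they were 4.02, 2.96, 3.78 and 2.81 FPKM. Every Bcl11bm/m library was above all other libraries, and the Bcl11bfl/fl:Cd4-Cre libraries overlapped with wild-type.

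Id1 rose in Bcl11bm/m by 1.65 on the log2 scale (SE 0.40, 4.06 times the wild-type mean, adjusted p = 0.0247). This call was lost without Bcl11bm/m replicate 1 (adjusted p = 0.0950), without Bcl11bm/m replicate 3 (0.0689) and without wild-type replicate 5 (0.0567), and also with a pseudocount of 0.1 (0.0556) or no filter on low values (0.0555). The Id1 difference of Bcl11bfl/fl:Cd4-Cre from wild-type was 0.72 (SE 0.32, adjusted p = 0.160). The direct difference between the mutants was 0.94 (SE 0.23, adjusted p = 0.0468), a call that was kept in 3 of 8 other settings and without 1 of the 7 libraries.

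Tcf12, which encodes HEB, was higher in Bcl11bm/m and not in Bcl11bfl/fl:Cd4-Cre. Its level was 87.8, 147, 155, 117 and 151 FPKM in wild-type cells. With Bcl11bm/m it was 274, 214 and 213 FPKM. With Bcl11bfl/fl:Cd4-Cre it was 128, 121, 133 and 141 FPKM. The Bcl11bm/m values lay above all others, and the Bcl11bfl/fl:Cd4-Cre values all lay inside the wild-type range with a coefficient of variation of 6.29%.

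The Tcf12 mean of Bcl11bm/m was 1.78 times that of wild-type, a log2 difference of 0.85 (SE 0.21, 95% interval 0.37 to 1.32, adjusted p = 0.0259). The adjusted p rose above 0.05 without any 1 of the Bcl11bm/m libraries (0.0997, 0.0703 and 0.0595 without replicates 1, 2 and 3) and without wild-type replicate 4 (0.0516). The difference stayed between 0.71 and 0.91 in all 8 fits without 1 library. With a replicate block the call was lost too (adjusted p = 0.233). For Bcl11bfl/fl:Cd4-Cre the difference from wild-type was 0.02, with a 95% interval from -0.37 to 0.41 and an adjusted p of 0.948. The mutants differed directly by 0.82 (SE 0.12, adjusted p = 0.0111), and this call was kept without each of the 7 libraries in turn, with adjusted p between 0.0175 and 0.0409. It was lost with a replicate block (adjusted p = 0.126).

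Tcf3, which encodes E12 and E47, was lower in Bcl11bfl/fl:Cd4-Cre cells. Wild-type cells had 63.1, 68.6, 78.5, 86.2 and 83.8 FPKM of Tcf3. The Bcl11bfl/fl:Cd4-Cre values of 52.7, 60.2, 49.6 and 53.8 FPKM were all under the lowest wild-type library. Of the Bcl11bm/m values of 66.8, 51.3 and 62.7 FPKM, that of replicate 1 lay inside the wild-type range.

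Tcf3 fell in Bcl11bfl/fl:Cd4-Cre by 0.48 on the log2 scale (SE 0.12, 0.711 times the wild-type mean, adjusted p = 0.0309). The call was lost with short RNAs left out (adjusted p = 0.0511), with a replicate block (0.11) and in 7 of the 9 fits without 1 library. In these 7 fits the adjusted p reached 0.0894 at most. The call was kept without wild-type replicate 1 and without Bcl11bfl/fl:Cd4-Cre replicate 2. In Bcl11bm/m the difference was -0.33 (SE 0.14, adjusted p = 0.158), which passed with median-ratio scaling (0.0257) and with library quality weights (0.0374). The mutants differed by 0.15 in Tcf3, with a 95% interval from -0.13 to 0.43 and an adjusted p of 0.447.

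Tcf4 (ENSMUSG00000053477.9, plus strand, chr18:69503800-69847621) had few transcripts in all groups and no comparison passed the threshold. Its wild-type values were 4.64, 6.92, 6.19, 5.57 and 6.26 FPKM. With Bcl11bm/m they were 7.33, 6.42 and 6.65 FPKM, and with Bcl11bfl/fl:Cd4-Cre 5.43, 4.53, 4.69 and 5.15 FPKM. Both mutants overlapped with wild-type, with adjusted p of 0.447 and 0.298. Every Bcl11bm/m library was above every Bcl11bfl/fl:Cd4-Cre library, by 0.39 on the log2 scale (SE 0.11, adjusted p = 0.0646), and this difference passed with library quality weights (0.0461).

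**Figure D2:**
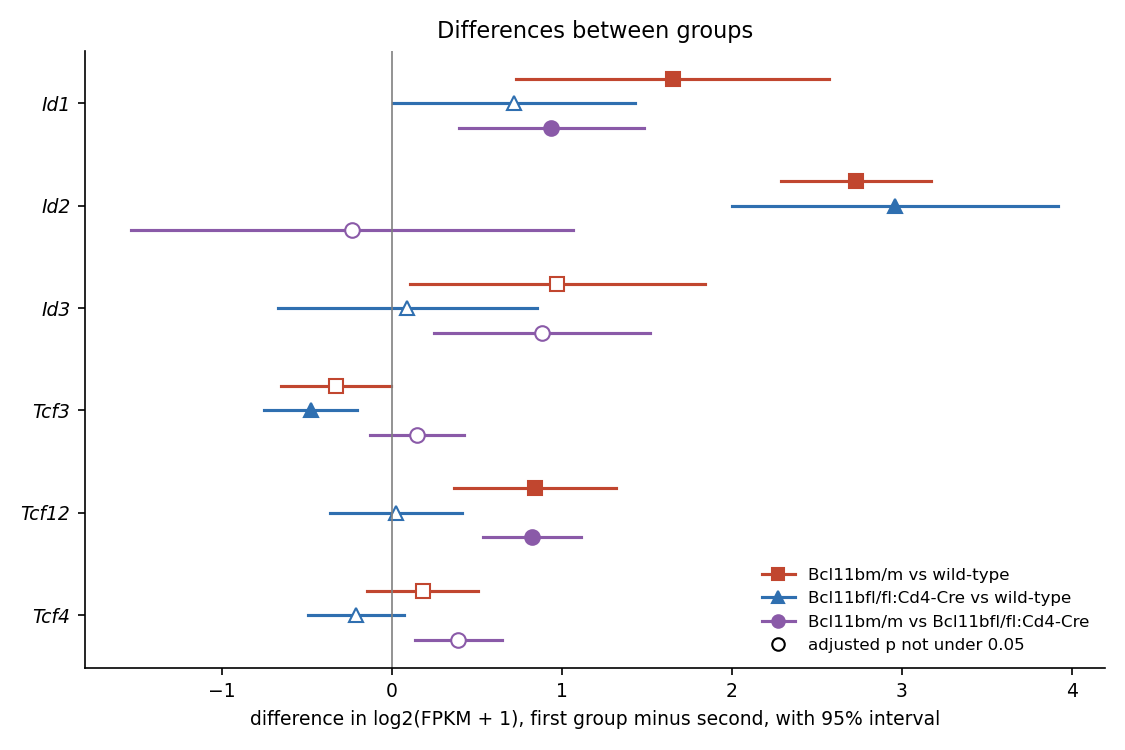
Difference in log2(FPKM + 1) of each gene for Bcl11bm/m against wild-type (squares), Bcl11bfl/fl:Cd4-Cre against wild-type (triangles) and Bcl11bm/m against Bcl11bfl/fl:Cd4-Cre (circles), with 95% intervals and filled symbols for an adjusted p under 0.05. The Id2 differences of 2.73 and 2.96 from wild-type stand far from 0, and Tcf12 is filled for the Bcl11bm/m comparisons, at 0.85 and 0.82.

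In counts, 3 of the 6 genes were called between Bcl11bm/m and wild-type, all higher (Id1, Id2 and Tcf12), where 17.3% of all features tested were called, 9.92% higher and 7.39% lower. For Bcl11bfl/fl:Cd4-Cre it was 2 of 6, with Id2 higher and Tcf3 lower, against 14.5% of all features, 4.65% higher and 9.86% lower. Directly between the mutants it was again 2 of 6, with Id1 and Tcf12 higher in Bcl11bm/m, against 10.2% of all features, 7.63% higher and 2.6% lower. Groups that did not overlap were seen for 3 genes against 25.4% of all features, for 2 genes against 16.1%, and for 4 genes (Id1, Id3, Tcf12 and Tcf4) against 26.7%, in the same order. The comparisons with wild-type share the 5 wild-type libraries and are not independent of each other.

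The make-up of the Id transcripts differed between the groups. Id2 took 2.93 to 7.73% of the summed Id FPKM in wild-type libraries, 15.2 to 17.3% in Bcl11bm/m and 14.8 to 43.8% in Bcl11bfl/fl:Cd4-Cre. Id3 stood at 11.2 to 32.1 times Id2 in wild-type libraries, at 4.59 to 5.28 times in Bcl11bm/m and at 1.24 to 5.54 times in Bcl11bfl/fl:Cd4-Cre. These ratios do not overlap between wild-type and either mutant, while those of the mutants overlap.

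The summed Id FPKM was 40.0 to 131 in wild-type, 158 to 245 in Bcl11bm/m and 96.1 to 226 in Bcl11bfl/fl:Cd4-Cre. The summed E protein FPKM was 156 to 241 in wild-type, 272 to 348 in Bcl11bm/m and 186 to 199.7 in Bcl11bfl/fl:Cd4-Cre. As a percentage of the E protein sum, the Id sum of wild-type libraries was 25.7 to 62.8 and that of Bcl11bm/m libraries 55.9 to 70.5, ranges that overlap. In Bcl11bfl/fl:Cd4-Cre it was 120.7 in replicate 3 and 51.5 to 52.6 in the other libraries. The Tcf12 level was 1.35 to 2.14 times that of Tcf3 in wild-type, 3.39 to 4.17 times in Bcl11bm/m and 2.01 to 2.68 times in Bcl11bfl/fl:Cd4-Cre. No test was made of these sums and ratios, and transcript levels do not give protein levels or dimers.

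**Figure D3:**
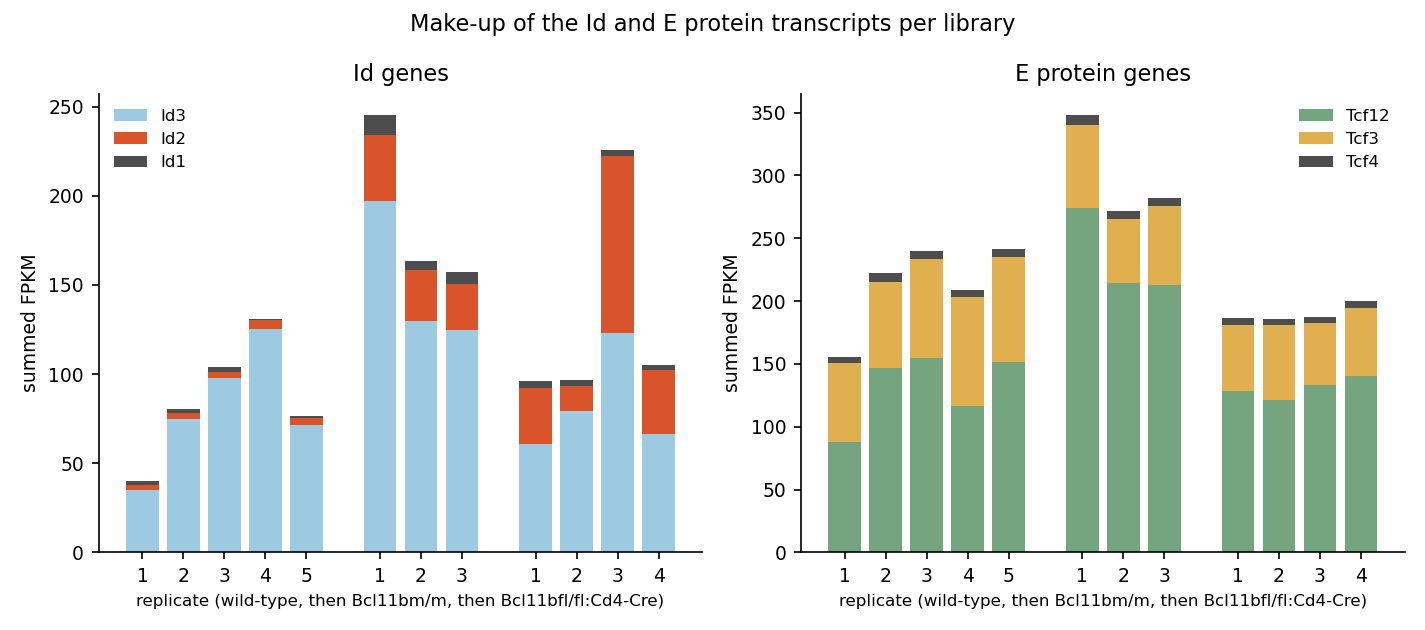
Stacked FPKM of the Id genes (left) and the E protein genes (right), with 1 bar per library in the order wild-type, Bcl11bm/m and Bcl11bfl/fl:Cd4-Cre and 1 colour per gene. The Id2 part of the Id bar grows from at most 7.73% in wild-type to 43.8% in Bcl11bfl/fl:Cd4-Cre replicate 3, and the Tcf12 part of the E protein bar is largest in Bcl11bm/m.

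Genes known as E protein targets were examined as a list of 15, of which 14 were tested. In Bcl11bm/m 5 rose and 3 fell, and in Bcl11bfl/fl:Cd4-Cre 4 rose and none fell, with 10 not called. Over all features 9.92% were called higher and 7.39% lower in the former comparison, and 4.65% and 9.86% in the latter. Of the rises, 4 in each mutant are Cxcr5, Zbtb7b, Il7r and Hes1, which passed the filter on low values only through the mutants, so that the counts of rises carry no weight and these genes are given for their levels. The number that fell in Bcl11bfl/fl:Cd4-Cre was 1 with median-ratio scaling, with short RNAs left out and with a single fit of all groups, 2 with quantile normalization, 4 with library quality weights, 1 without Bcl11bfl/fl:Cd4-Cre replicate 2 and 3 without wild-type replicate 1. Between the mutants no listed target was called by limma, but 2 were higher in Bcl11bm/m with short RNAs left out, 2 higher and 1 lower with a single fit, 2 higher and 2 lower with library quality weights or without Bcl11bfl/fl:Cd4-Cre replicate 3, and 1 higher without Bcl11bfl/fl:Cd4-Cre replicate 2. The median log2 difference of the list was -0.19 and -0.28, beside -0.02 and -0.09 over all features. The list holds genes that E proteins are known to activate and genes they are known to bind without a fixed direction, so its median has no direction of its own.

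Wild-type cells hardly expressed Cxcr5, Zbtb7b, Il7r and Hes1, all under 1 FPKM in every wild-type library. Cxcr5, the chemokine receptor of follicular helper T cells, was at 0.10 to 0.80 FPKM in wild-type, at 206 to 273 FPKM in Bcl11bm/m and at 14.6 to 122 FPKM in Bcl11bfl/fl:Cd4-Cre (log2 differences 7.44 and 5.21). Zbtb7b, the gene of the helper lineage factor ThPOK, was at or under 0.22 FPKM in wild-type, at 41.1 to 50.4 in Bcl11bm/m and at 9.44 to 56.6 in Bcl11bfl/fl:Cd4-Cre (5.47 and 4.66).

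Il7r, the receptor chain for interleukin 7, was at or under 0.09 FPKM in wild-type, at 12.2 to 25.8 in Bcl11bm/m and at 1.45 to 8.96 in Bcl11bfl/fl:Cd4-Cre (log2 differences 4.04 and 2.01). Hes1, a target of Notch signals, was at or under 0.26 FPKM in wild-type, at 5.49 to 25.5 in Bcl11bm/m and at 0.36 to 11.7 in Bcl11bfl/fl:Cd4-Cre (3.44 and 2.39). Hes1 is counted above among the rises in Bcl11bfl/fl:Cd4-Cre, and it was not called there without replicate 1, 3 or 4 of that group or with a replicate block. Bcl11bfl/fl:Cd4-Cre replicate 2, the lowest for Id2, was also the lowest of its group for each of these 4 genes, and replicate 3, the highest for Id2, was the highest for Cxcr5, Zbtb7b and Il7r.

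Genes of the CD4+CD8+ programme that E proteins are known to activate were lower in Bcl11bm/m. Ptcra, the pre-T cell receptor chain, was at 29.3 to 44.5 FPKM in wild-type and at 5.34 to 12.2 FPKM in Bcl11bm/m, and fell by 2.22 on the log2 scale (SE 0.25, adjusted p = 0.000758). Cd4 fell by 0.99 (SE 0.14, adjusted p = 0.00215) and Rag2, a subunit of the V(D)J recombinase, by 0.87 (SE 0.17, adjusted p = 0.00997, and 0.0513 without Bcl11bm/m replicate 2). None of the 3 was called in Bcl11bfl/fl:Cd4-Cre, with log2 differences of -0.22, -0.38 and -0.78. Notch1 rose in Bcl11bm/m by 1.28 (SE 0.34, adjusted p = 0.0354). That call was lost without any 1 of the Bcl11bm/m libraries (adjusted p = 0.120, 0.102 and 0.0802) and without wild-type replicate 1 (0.0564) or 5 (0.0752). It was also lost with no filter on low values (0.0731) or with a replicate block (0.234). The number of targets that fell in Bcl11bm/m was 5 rather than 3 with median-ratio scaling, with quantile normalization or with short RNAs left out, 7 with library quality weights and 0 with a replicate block, under which 3 rather than 5 rose.

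**Figure D4:**
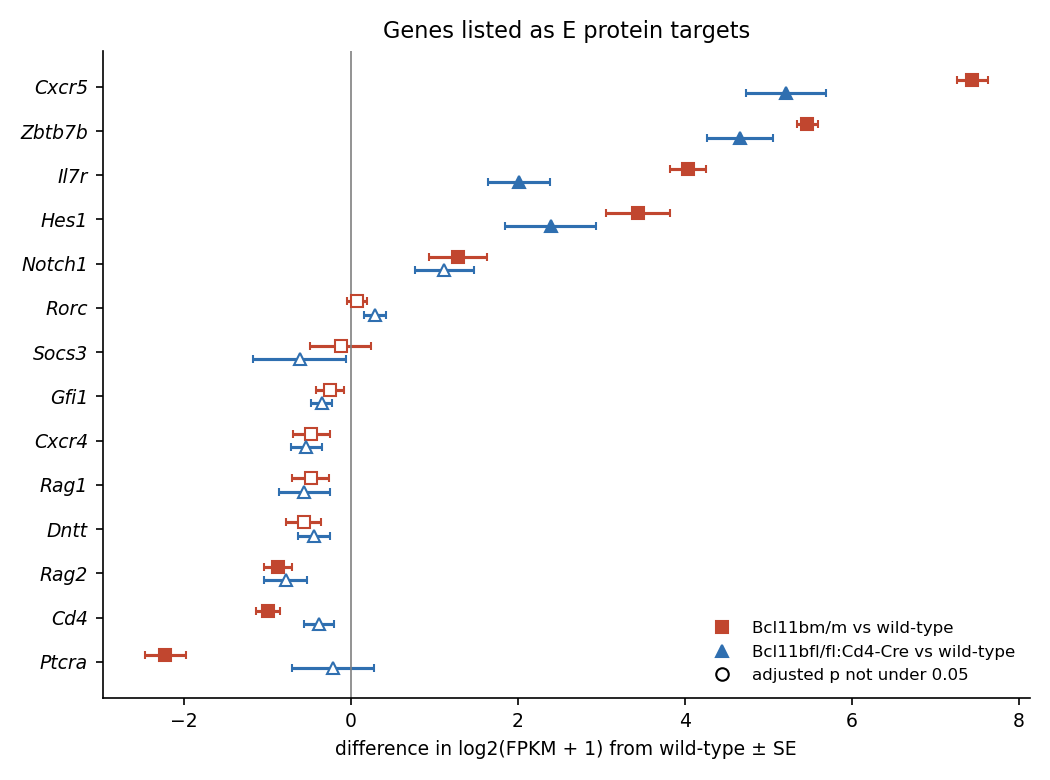
Difference in log2(FPKM + 1) from wild-type ± SE for the 14 tested genes listed as E protein targets, in Bcl11bm/m (squares) and Bcl11bfl/fl:Cd4-Cre (triangles), ordered by the Bcl11bm/m value, with filled symbols for an adjusted p under 0.05. Cxcr5, Zbtb7b, Il7r and Hes1 are filled in both mutants, between 2.01 and 7.44. They passed the filter on low values only through the mutants, so their filling carries no weight. Ptcra, Cd4 and Rag2 are filled in Bcl11bm/m alone, where the difference between the mutants was not called.

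Other helix-loop-helix and LIM partners of E proteins were mostly silent. Of 10 genes listed, 3 were tested and the other 7, with Tal1, Lmo1, Lmo2, Ascl2, Msc, Twist1 and Id4, were under the filter. Lmo4, a LIM-only adaptor protein, was at 34.6 to 55.5 FPKM in wild-type, at 190 to 383 FPKM in Bcl11bm/m and at 189 to 461 FPKM in Bcl11bfl/fl:Cd4-Cre. It rose by 2.59 (SE 0.23, adjusted p = 0.000253) and by 2.57 (SE 0.25, adjusted p = 0.00130). Lyl1, a helix-loop-helix factor of early progenitors that dimerizes with E proteins, was at 0.27 to 1.21 FPKM in wild-type, at 7.09 to 17.2 in Bcl11bm/m and at 5.79 to 27.0 in Bcl11bfl/fl:Cd4-Cre, with log2 differences of 2.76 and 2.89. It passed the filter only through the mutants, so it is given for its levels. Ldb1, the partner of LIM-only proteins, was at 142 to 184 FPKM in wild-type and was not called.

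Coactivators and corepressors of E proteins were not called in any comparison. Of 7 genes listed 6 were tested, among them Ep300, Crebbp and Cbfa2t3 (ETO2), and by limma the count of calls was 0 in each comparison, at unadjusted p under 0.05 as well. With 17.3%, 14.5% and 10.2% of all features called, a count of 0 among 6 is near the share over all features. Their median log2 difference from wild-type was 0.05 in Bcl11bm/m and 0.06 in Bcl11bfl/fl:Cd4-Cre.

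The inputs that are known to set Id gene levels were examined too. T cell receptor signals raise Id3 through Egr factors, and 7 genes of this response were all tested. In Bcl11bm/m 4 fell and none rose, where 7.39% of all features were called lower, and in Bcl11bfl/fl:Cd4-Cre 3 fell and none rose, against 9.86%. The number that fell in Bcl11bm/m was 2 with a single fit of all groups, 1 with a replicate block and 3 to 5 in the other settings. Nr4a1, an orphan receptor induced by T cell receptor signals, was at 15.2 to 26.5 FPKM in wild-type and fell to 4.05 to 4.69 FPKM in Bcl11bm/m (log2 difference -1.94, adjusted p = 0.000281). Egr1 was at 37.8 to 70.3 FPKM in wild-type and at 14.9 to 24.1 FPKM in Bcl11bm/m (-1.27, adjusted p = 0.00852). Egr2 (-1.12, adjusted p = 0.0107) and Cd5 (-1.37, adjusted p = 0.0122) fell with them. Not called were Cd69 (-0.58, adjusted p = 0.177), Egr3 (0.10, adjusted p = 0.842) and Nfatc1 (0.44, adjusted p = 0.140). Nfatc1 was higher in every Bcl11bm/m library than in any wild-type library. The calls of Egr1 and Egr2 were lost with a single fit of all groups (adjusted p = 0.142 and 0.0913). A replicate block lost the calls of Egr1, Egr2 and Cd5. Id3 was not lower in the Bcl11bm/m libraries.

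The same response was uneven in Bcl11bfl/fl:Cd4-Cre. Egr1 was at 5.2 and 4.0 FPKM in replicates 1 and 4 and at 35.6 and 26.8 FPKM in replicates 2 and 3. Id3 was at 61.0 and 66.4 FPKM in replicates 1 and 4 and at 79.2 and 123 FPKM in replicates 2 and 3. These Id3 values all lay inside the wild-type range, and a link between Egr1 and Id3 was not tested. Egr1 (log2 difference -1.96, adjusted p = 0.0439), Egr2 (-1.55, adjusted p = 0.0402) and Cd69 (-1.46, adjusted p = 0.0356) fell on average. These 3 calls were lost without Bcl11bfl/fl:Cd4-Cre replicate 1 or 4 and without any 1 of wild-type replicates 2 to 5, with adjusted p up to 0.135. They were also lost with no filter on low values (0.0926, 0.0850 and 0.0744), and that of Egr2 with a pseudocount of 0.1 (0.0529). A replicate block lost all 3 calls as well.

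BMP and TGF-β receptors and Smads, which are known to act on Id1 to Id3, were listed with 11 genes, of which 7 were tested. Of these, 2 rose in Bcl11bm/m and 1 in Bcl11bfl/fl:Cd4-Cre, where 9.92% and 4.65% of all features were called higher. The number that rose in Bcl11bm/m was 0 to 5 in the other settings and 0 to 4 without 1 library. In Bcl11bfl/fl:Cd4-Cre it was 1 to 2 in the other settings. In Bcl11bm/m Smad1 rose by 0.65 (adjusted p = 0.0262) and Smad5 by 0.43 (adjusted p = 0.0150), the Smads that BMP receptors act on. Smad1 averaged 7.81 ± 1.20 FPKM in wild-type and 12.9 ± 2.05 in Bcl11bm/m, and both calls were lost without Bcl11bm/m replicate 1 (adjusted p = 0.103 and 0.0554) or 2 (0.107 and 0.0684). The Smad5 call was also lost without Bcl11bm/m replicate 3 (0.0576), and that of Smad1 without wild-type replicate 2 (0.0634) or 5 (0.0543). A replicate block lost both calls (adjusted p = 0.188 for Smad1 and 0.182 for Smad5). In Bcl11bfl/fl:Cd4-Cre Smad3, which TGF-β receptors act on, was at 13.2 to 15.6 FPKM in wild-type and rose to 38.4 to 56.4 FPKM (log2 difference 1.61, SE 0.13, adjusted p = 0.000522). Smad3 was at 14.1 to 16.4 FPKM in Bcl11bm/m and differed between the mutants by -1.48 (adjusted p = 0.00225). Tgfbr1, a TGF-β receptor chain, differed in the other direction, by 0.68 (SE 0.13, adjusted p = 0.0244), a call lost with median-ratio scaling, with quantile normalization, with a replicate block, and without Bcl11bm/m replicate 2 or 3 or Bcl11bfl/fl:Cd4-Cre replicate 1 or 2.

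Markers of the sorted cells and of cells that could be mixed with them were examined beside the Id and E protein genes. The summed FPKM of 10 genes of CD4+CD8+ pre-selection thymocytes was 5098 to 6802 in wild-type, 3760 to 4284 in Bcl11bm/m and 3531 to 5602 in Bcl11bfl/fl:Cd4-Cre, so the labelled population was present in all groups. Of these 10 genes, 6 fell in Bcl11bm/m, where 7.39% of all features were called lower, and 1 in Bcl11bfl/fl:Cd4-Cre, which is near the 9.86% of all features. The 6 include Cd4, Rag2 and Ptcra, the targets that fell. Cd24a, the gene of the CD24 used in the sort, fell in both mutants. It averaged 182 FPKM in wild-type, 79.8 in Bcl11bm/m and 80.2 in Bcl11bfl/fl:Cd4-Cre (log2 differences -1.154 and -1.155, adjusted p = 0.00422 and 0.00517). Of 6 markers of selected thymocytes, 5 rose in Bcl11bm/m and 4 in Bcl11bfl/fl:Cd4-Cre, with Klf2, S1pr1, Itgb7 and Il7r in both. S1pr1 and Il7r passed the filter only through the mutants, so their calls add nothing to the count. Over all features 9.92% and 4.65% were called higher. The sum of the 6 markers was 77.6 to 142 FPKM in wild-type, 330.03 to 459 in Bcl11bm/m and 119 to 328 in Bcl11bfl/fl:Cd4-Cre, where replicate 3 was highest and replicate 2 lowest, as for Id2. Id2 is also a gene of innate lymphoid and NK cells. The summed FPKM of 8 NK cell markers was 18.9 to 72.9 in wild-type, 229 to 437 in Bcl11bm/m and 66.7 to 194 in Bcl11bfl/fl:Cd4-Cre, with Ncr1 listed at 0 in every wild-type and every Bcl11bfl/fl:Cd4-Cre library and under 1 FPKM on average in Bcl11bm/m, and Eomes under 1 FPKM in all groups. Most of that sum is Gzma, a granzyme, at 16.4 to 67.1 FPKM in wild-type, 202 to 409 in Bcl11bm/m and 64.3 to 160.4 in Bcl11bfl/fl:Cd4-Cre (log2 differences 2.99 and 1.64, adjusted p = 0.00309 and 0.0276). Tyrobp, a signalling adaptor (2.71, adjusted p = 0.00110), and Prf1, the perforin gene (0.86, adjusted p = 0.0264), also rose in Bcl11bm/m, whereas Prf1 fell in Bcl11bfl/fl:Cd4-Cre (-0.80, adjusted p = 0.0257). Klrb1c, the NK1.1 receptor, passed the filter only through the mutants, with means of 0.155 FPKM in wild-type, 4.22 in Bcl11bm/m and 7.34 in Bcl11bfl/fl:Cd4-Cre, and its groups overlap. Among the NK cell markers not tested, Nkg7 was under 1 FPKM in wild-type and reached 1 FPKM in at least 1 library of each mutant. Klrd1 was at 0 in every wild-type library, under 1 FPKM in Bcl11bm/m and reached 1 FPKM in at least 1 Bcl11bfl/fl:Cd4-Cre library.

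Of 8 genes of early CD4-CD8- thymocytes, Kit, Il2ra and Lyl1 passed the filter and were called higher in Bcl11bm/m, and Lyl1 was called higher in Bcl11bfl/fl:Cd4-Cre. Kit and Lyl1 passed the filter only through the mutants, and the other 5 genes were under it, so the count of calls carries no weight. Their sum was 4.77 to 6.69 FPKM in wild-type, 140, 53.3 and 44.1 FPKM in the Bcl11bm/m libraries and 10.2 to 36.2 FPKM in Bcl11bfl/fl:Cd4-Cre. Bcl11bm/m replicate 1, the highest of its group for Id1, Id2, Id3, Tcf12, Tcf3 and Tcf4, also had the most FPKM of myeloid markers (53.4, against 21.7 and 15.2 in its group, at most 14.4 in wild-type and 3.09 to 5.66 in Bcl11bfl/fl:Cd4-Cre). It also had the most FPKM of B cell markers (35.9, against 7.38 and 7.92 in its group, 12.9 to 21.1 in wild-type and 11.3 to 27.7 in Bcl11bfl/fl:Cd4-Cre). The B cell gene Cd79a was called higher in Bcl11bfl/fl:Cd4-Cre than in wild-type (log2 difference 1.02), and it passed the filter only through the mutants. The myeloid genes Lyz2 and Csf3r were called between the mutants, with the higher level in Bcl11bm/m (log2 differences 3.30 and 0.56), as were Id1 and Tcf12. Mpeg1 was called too (1.70), and it passed the filter only through Bcl11bm/m. The sum of 6 plasmacytoid dendritic cell markers, in which Tcf4 is known to act, was 2.66 to 8.70 FPKM in wild-type, 7.12 to 11.7 in Bcl11bm/m and 3.58 to 9.71 in Bcl11bfl/fl:Cd4-Cre, with Siglech and Bcl11a under 1 FPKM in all groups. Endothelial cells are known to express Id1. Of their 5 markers Pecam1 rose in both mutants, which brought their sum from 37.7 to 63.7 FPKM in wild-type to 143 to 163 in Bcl11bm/m and 81.2 to 128 in Bcl11bfl/fl:Cd4-Cre, while Cdh5, Kdr and Tek were under 1 FPKM in all groups. The sum of 5 erythroid markers was 2.36 to 33.9 FPKM in wild-type cells, 10.6 to 29.7 with Bcl11bm/m and at most 5.06 with Bcl11bfl/fl:Cd4-Cre, and the globin genes Hba-a1 (log2 difference 2.45, adjusted p = 0.0162) and Hbb-b2 (2.26, adjusted p = 0.0263) were called higher in the former mutant in the direct comparison. The sum of 6 thymic stroma markers was at most 4.37 FPKM. The stroma marker Epcam averaged 3.04 FPKM in wild-type, 0.303 in Bcl11bm/m and 0.786 in Bcl11bfl/fl:Cd4-Cre. It was called lower in both mutants, but it passed the filter only through wild-type and is given for its levels. The part of any of these cells in the differences was not tested.

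The features whose levels followed each gene most closely over the 12 libraries were named by Pearson correlation of log2(FPKM + 1). The libraries fall into their groups, so these values describe group differences as well as variation within groups, and they carry no p. For Id2 they were Il18r1 (r = 0.986), a receptor chain for interleukin 18, Dennd3 (0.983) and Lmo4 (0.977). The means of Il18r1 were 0.24 FPKM in wild-type, 5.42 in Bcl11bm/m and 5.69 in Bcl11bfl/fl:Cd4-Cre, and those of Lmo4 were 43.2, 274 and 277. For Tcf12 they were Oxr1 (0.971), Palm (0.967) and H2-Oa (0.963), and H2-Oa averaged 16.8, 42.0 and 16.3 FPKM in the same order. For Tcf3 they were Slmo2 (0.966), Gm6498 (0.963) and Hccs (0.954), for Tcf4 Dnajc6 (0.950), Lrrfip1 (0.947) and Sept2 (0.924), for Id3 Ppib (0.949), Bak1 (0.949) and Snx1 (0.946), and for Id1 Zfhx2as (0.938), Sh3pxd2a (0.937) and Vcpip1 (0.932). The highest values differ little from one another, and no feature is singled out beyond its rank.

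**Figure D5:**
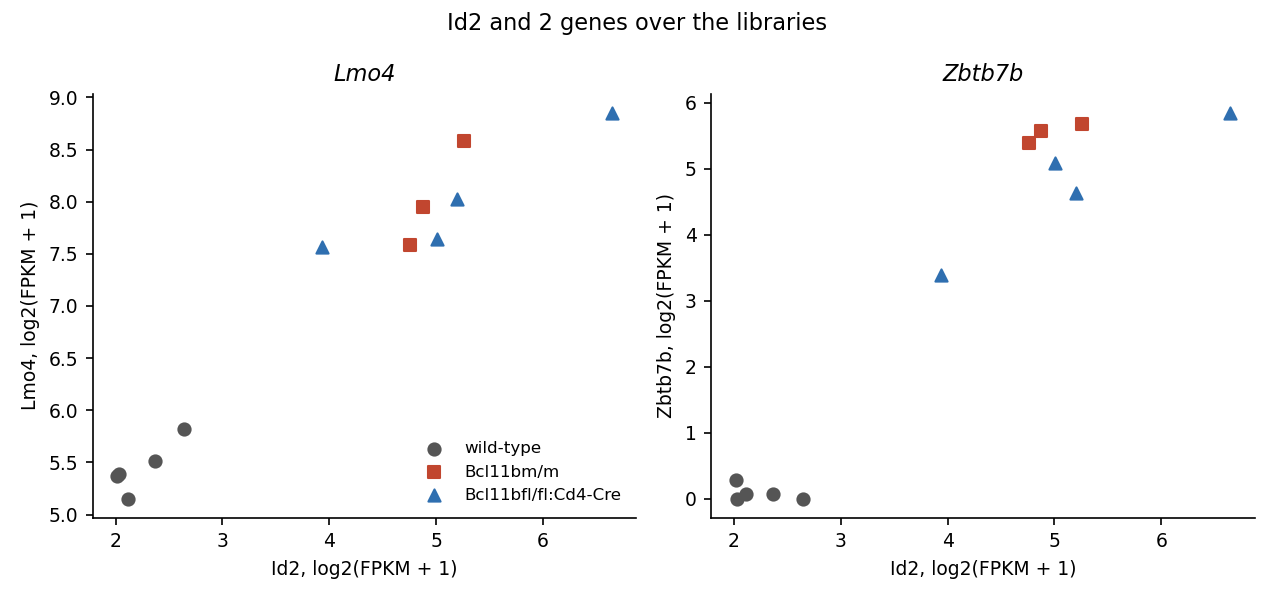
Id2 on the horizontal axis against Lmo4 (left) and Zbtb7b (right), all as log2(FPKM + 1), with 1 point per library and the groups marked as circles (wild-type), squares (Bcl11bm/m) and triangles (Bcl11bfl/fl:Cd4-Cre). The wild-type libraries lie apart at low Id2, and within Bcl11bfl/fl:Cd4-Cre replicate 3 is highest for Id2 (99.0 FPKM), Lmo4 (461 FPKM) and Zbtb7b (56.6 FPKM) and replicate 2 is lowest.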

How the data were processed

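RNA-seq of 12 libraries of sorted pre-selection thymocytes was used, 5 wild-type, 3 Bcl11bm/m and 4 Bcl11bfl/fl:Cd4-Cre. The authors mapped reads with TopHat2 and deposited FPKM values per gene and library from Cufflinks 2.1.1 on mm9 with the iGenome annotation, per the submitters' processing notes and the study's methods. No scaling between libraries is stated, and an exact 0 can be a failed estimate. Strand-specific libraries are described in the study's methods and a low-input cDNA kit in the labels, so strand handling is uncertain. Rpl15-ps2 lies antisense within Tcf12.

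Values were taken as log2(FPKM + 1), and fold changes on this scale understate those of low genes. Features averaging 1 FPKM or more over all libraries (10780) were fitted with limma 3.58.1 in R 4.3.3 (lmFit, eBayes with trend) using the libraries of the 2 groups only. Its two-sided p-values were adjusted by Benjamini-Hochberg over all features, with a threshold of 0.05. Single genes were also tested by exact permutation. Python 3.11.15 with numpy 2.4.6, pandas 2.3.3, scipy 1.17.1 and matplotlib 3.10.9 did the rest. The fit was tested on simulated data. The depth is an estimate from whole multiples in low FPKM values, with an assumed fragment length of 200 bases.

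The 6 genes, the gene lists and the marker lists were chosen with earlier results of these data known. Named were all 6 genes, Bcl11b, from each list up to 4 genes per comparison with wild-type by smallest adjusted p (Cd4, Rag2, Notch1, marker genes and examples of genes not called were added after their values were seen), and the 3 features most like each gene. The list gene Spi1 is in the table as Sfpi1. RefSeq promoters (GRCm38.p6) were matched by symbol. Alternatives were a pseudocount of 0.1, no filter, a minimum of 5 FPKM, median-ratio scaling, quantile normalization, short RNAs left out, a single fit of all groups, a replicate block, library quality weights and leaving out each library.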

Additional observations from a re-analysis of the deposited data

Results flagged for a closer look

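The change of Tcf12 from wild-type differed between the mutants. It was 0.85 on the log2(FPKM + 1) scale in Bcl11bm/m and 0.02 in Bcl11bfl/fl:Cd4-Cre, and the direct test of the difference gave 0.82 (SE 0.12, adjusted p = 0.0111 by limma), with all 3 Bcl11bm/m libraries above all 4 Bcl11bfl/fl:Cd4-Cre libraries. The difference was called in 8 of 9 other settings and in all 7 fits without 1 library. The mutants also differ in the stage at which Bcl11b function is changed and may differ in age. Their libraries differ in estimated depth too, at 2730000 to 4230000 fragments in Bcl11bm/m and 10940000 to 45860000 in Bcl11bfl/fl:Cd4-Cre. Stage, age and depth cannot be told apart here. Myeloid marker sums were 15.2 to 53.4 FPKM in Bcl11bm/m and 3.09 to 5.66 in Bcl11bfl/fl:Cd4-Cre, erythroid marker sums were 10.6 to 29.7 and at most 5.06 FPKM, and their part in this difference and in that of Id1 was not tested.

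The change of Id1 differed between the mutants as well, by 0.94 (SE 0.23, adjusted p = 0.0468 by limma). All 3 Bcl11bm/m libraries were above all 4 Bcl11bfl/fl:Cd4-Cre libraries, and the call held in 3 of 8 other settings and in 1 of 7 fits without 1 library. The Id1 values of Bcl11bm/m rest on about 20 to 28 fragments each. Among the 12 groups of 4 or 5 libraries, 1 per gene and group, no library stood apart by Dixon's test at the 95% level, where chance gives about 0.6.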

How the results depend on the processing

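Over 303 refits of the 6 genes, 253 kept the direction and the side of the threshold, 32 lost the call, 10 gained one and 8 changed direction. Id2 against wild-type was called in every refit. Tcf12 in Bcl11bfl/fl:Cd4-Cre against wild-type was -0.14 with library quality weights and -0.11 to 0.0885 without 1 library, Id3 was -0.12 and -0.18 to 0.28, and Id2 between the mutants was -0.65 to 0.25 without 1 library, none of them called. Genes called in Bcl11bm/m against wild-type were 5 with library quality weights and 1 to 3 without 1 library. In Bcl11bfl/fl:Cd4-Cre against wild-type it was 1 with short RNAs left out and 1 to 2 without 1 library. Between the mutants it was 1 without a filter, with a minimum of 5 FPKM (Id1 is under it), with median-ratio scaling and with a single fit, 4 with quality weights and 1 to 2 without 1 library. Features called (1866, 1564 and 1102) were 3604, 3176 and 2173 with quality weights, 1189 and 656 in the first and last comparison with a minimum of 5 FPKM, which leaves fewer features, and 1021 to 2349, 700 to 2678 and 313 to 1121 without 1 library. The low ends came without Bcl11bm/m replicate 2, Bcl11bfl/fl:Cd4-Cre replicate 1 and Bcl11bm/m replicate 3, and 2678 without wild-type replicate 1. Counts also moved by over 1.5 times without Bcl11bm/m replicate 1 (1225, first comparison), Bcl11bfl/fl:Cd4-Cre replicate 3 (778) or 4 (773) or wild-type replicate 2 (938) or 5 (865) in the second, and Bcl11bm/m replicate 2 (327) or Bcl11bfl/fl:Cd4-Cre replicate 1 (392), 2 (649) or 4 (711) in the last. The higher share of the calls was 57.3, 32 and 74.6%, and with median-ratio scaling 52.6, 46.3 and 51.6%, and it was 52.9% in the second with short RNAs left out, 53.4% in the last with quantile normalization and 45.3% in the first with quality weights. With the replicate number as a block the genes called were 1, 1 and 0 and the features called 283, 456 and 30. Same-numbered libraries showed little shared deviation (correlations -0.211 to 0.152). With so few libraries per group, this cannot show whether the numbers pair the samples. Where no cause is named, the cause was not tested. Depth limits values near or under a few FPKM, such as Id1 and Id2 in wild-type.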

Other observations

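After the group means were subtracted, so that only variation within groups counts, the features that followed Id2 most closely over the 12 libraries were Sema4c (r = 0.962), Chst11 (0.956) and Gas7 (0.953). Gas7 averaged 0.0406 FPKM in wild-type, 17.2 in Bcl11bm/m and 2.44 in Bcl11bfl/fl:Cd4-Cre. For Id3 they were Map2k3 (0.981), Stx8 (0.977) and Rab35 (0.977), for Tcf3 Ncl (0.959), Med30 (0.955) and Ralgds (0.955), for Tcf12 Fbxo18 (0.969), Prex1 (0.963) and Sidt2 (0.951), for Tcf4 Cysltr2 (0.942), Tha1 (0.911) and Lss (0.901), and for Id1 Ammecr1l (0.953), Plcxd2 (0.944) and Rbm12b (0.929). None of these features was among the closest 3 before the subtraction.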
